A study of Mus musculus with 6 samples.

Results

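The genes described here are the glucocorticoid receptor gene *Nr3c1*, the glucocorticoid-activating enzyme gene *Hsd11b1*, and 4 genes known to be induced by the receptor, *Tsc22d3*, *Zbtb16*, *Fkbp5* and *Sgk1*. They were taken by gene symbol, 6 of the 20327 symbols in the count files. All 6 passed the filter on low counts, under which 9334 genes were tested.

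RNA came from fibroblast-enriched colon cells of *Il11-Egfp* reporter mice with dextran sulfate sodium (DSS) colitis, sorted by EGFP. The mice were males on a C57BL/6 background, 9 to 15 weeks old, that carried a bacterial artificial chromosome with *Egfp* placed in *Il11*. Both groups came from such mice, which drank 1.5% DSS for 5 days and were analysed on day 7, and both were taken from cells negative for Ter119, CD45, CD31 and EpCAM. EGFP+ cells are called IL-11+ and EGFP- cells IL-11-, with 3 libraries in each group; EGFP reports activity of the transgene and not IL-11 protein, no group without DSS was sequenced, and the IL-11- gate is defined by what its cells lack.

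Glucocorticoids enter cells and bind the receptor encoded by *Nr3c1*, which is held in the cytoplasm by chaperones, moves to the nucleus and turns genes on or off. Local supply also depends on *Hsd11b1*, whose product regenerates active glucocorticoid from its inactive keto form. The intestine makes and responds to glucocorticoids during inflammation, and the hormone is widely used to treat colitis.

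Expression was measured as 5′Tag-seq tags per gene symbol. The IL-11- libraries 1, 2 and 3 held 1057170, 1078179 and 1169817 tags, and the IL-11+ libraries held 1046538, 1022851 and 1049048. Levels are given as normalized CPM, computed on the TMM-scaled tags of the tested genes. In these units the floor of 3 tags lay between 2.46 and 3.18. Fold changes are IL-11+ over IL-11- on a log2 scale, and a gene was called where edgeR's quasi-likelihood test gave a Benjamini-Hochberg adjusted p under 0.05 and the fold was over 2.

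The labels were checked first. *Il11* had 28, 51 and 89 tags in the IL-11- libraries and 1357, 732 and 2658 in the IL-11+ libraries, so each IL-11+ library stood far above every IL-11- library. Of the 10 fibroblast markers, all tested, 2 were higher in IL-11+ cells, the most abundant was *Dcn*, and their summed level averaged 25743 normalized CPM in the IL-11- group and 36936 in the IL-11+ group. The markers did not move as one: *Col3a1* (1.04) and *Pdpn* (1.06) were called higher, as were 3.44% of all tested genes. Other markers, named after their values were seen, passed edgeR's adjusted p with a fold under 2. Of these, *Thy1* (0.88, adjusted p 0.00832) and *Dcn* (0.67, adjusted p 0.0462) were above. *Dpt* (−0.96, adjusted p 8.3e-04) and *Lum* (−0.64, adjusted p 0.0378) were below. *Pdgfra* had 742, 661 and 663 tags in the IL-11- group and 768, 688 and 705 in the IL-11+ group. Defining markers of the EpCAM+, CD31+ and CD45+ types gated out were at or near 0: *Epcam* had at most 1 tag in a library, *Pecam1* at most 1 and *Ptprc* at most 7. Of 8 endothelial and 10 immune markers 1 each passed the filter, *Tek* (33, 24 and 42 tags against 17, 7 and 5) and *Cd74* (12, 24 and 15 against 2, 4 and 10), both called lower, and of the epithelial, mesothelial and red blood cell markers (most abundant *Krt8*, *Wt1* and *Hbb-bs*) 0 passed it. Red blood cell markers, which the Ter119 gate selects against, were uneven: *Hbb-bs* had 34, 0 and 141 tags in the IL-11- group and 5, 0 and 9 in the IL-11+ group, and the markers summed to 90.7, 0 and 305 normalized CPM against 19.1, 2.03 and 19.1, highest in IL-11- library 3. Markers of other stromal types were present in the IL-11- libraries, and values of several are given with *Tsc22d3*.

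Of the 6 genes, 1 was lower in IL-11+ cells (*Tsc22d3*) and 0 were higher. Among all 9334 tested genes, 6.37% were called lower and 3.44% higher. At an unadjusted p under 0.05, edgeR gave 2 of the 6 lower and 1 higher, against 14.5% and 12.2% of all tested genes, and DESeq2 with the same thresholds called 0 in either direction. The median log2 fold change of the 6 was −0.13, against −0.01 for all tested genes. In 4 of the 6, the numbered replicates also fell in the same order in both groups, with number 1 highest and number 3 lowest.

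**Figure D1:**
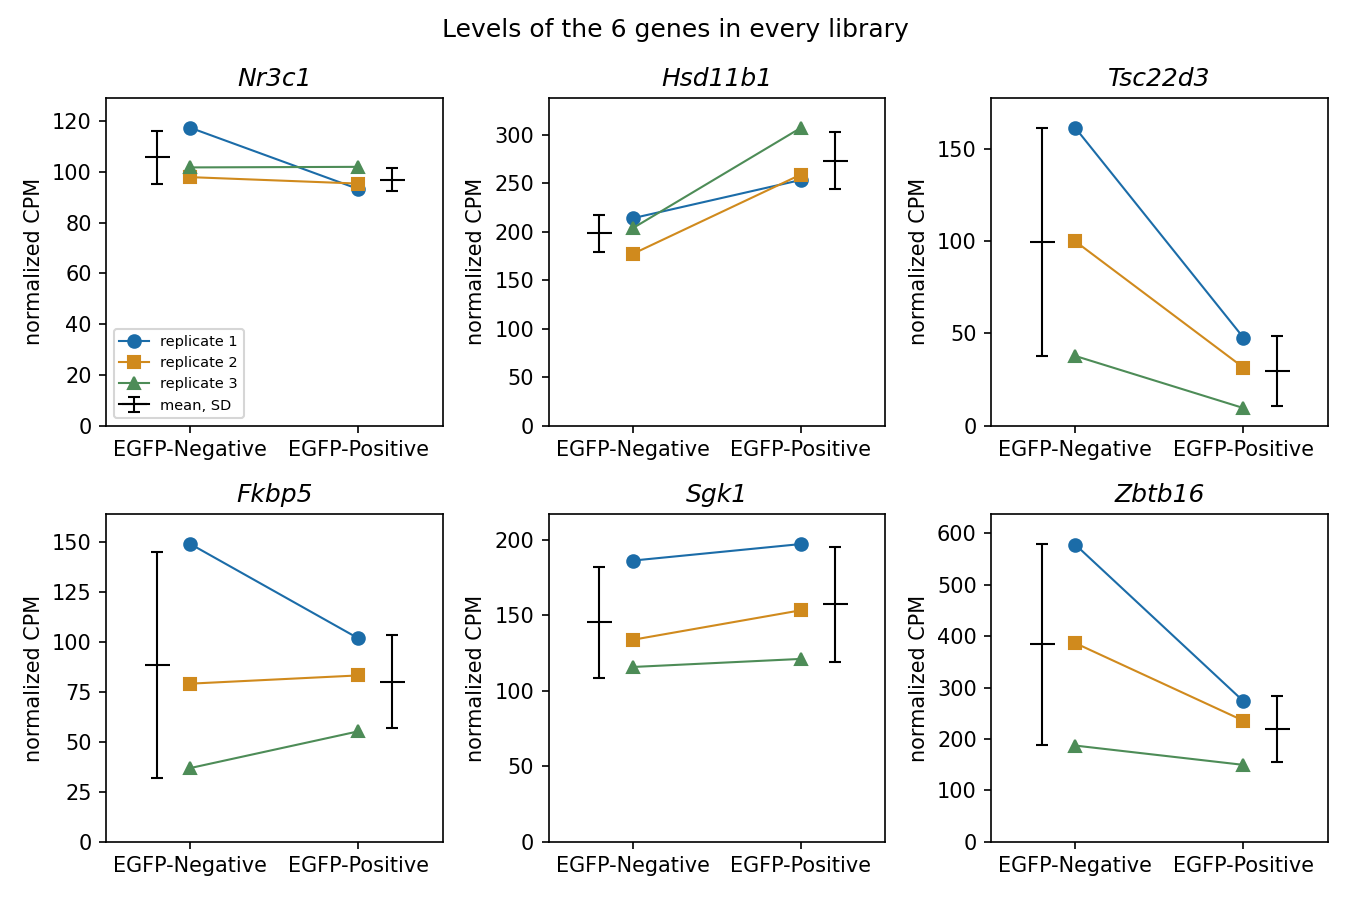
Normalized CPM of each of the 6 genes in the 3 IL-11- (EGFP-Negative) and 3 IL-11+ (EGFP-Positive) libraries. Colours and lines join libraries of the same number, and black marks give the mean ± SD of each group. *Tsc22d3* reached 161 in IL-11- library 1 and 9.54 in IL-11+ library 3, and for *Tsc22d3*, *Zbtb16*, *Fkbp5* and *Sgk1* library 1 was the highest and library 3 the lowest of each group.

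*Nr3c1*, which encodes the hormone-binding transcription factor itself, was detected evenly. It had 123, 104 and 124 tags in the IL-11- libraries and 88, 94 and 107 in the IL-11+ libraries. The groups overlapped, and the highest library was 1.199 times the lowest within IL-11- and 1.09 times within IL-11+ cells. Mean levels were 106 ± 10.3 (SD, n = 3) and 96.9 ± 4.57 normalized CPM. The log2 fold change was −0.12 (SE 0.169, 95% interval −0.48 to 0.23, edgeR adjusted p = 0.702), an interval that holds 0 and leaves out a change of 2-fold either way. Fewer cells of a type and less RNA per cell cannot be told apart in such bulk libraries. The gene lies at chr18:39410545-39519421 on the minus strand (GRCm38, GENCODE), with 9 transcripts of up to 9 exons and no overlapping gene.

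The genes whose products hold the receptor or work with it also showed little difference. Of 20 listed genes of the receptor complex and its coregulators, 19 were tested and 0 were called by edgeR in either direction, with 3 higher and 0 lower at an unadjusted p under 0.05 and 0 called by DESeq2; their median log2 fold change was 0.07. *Hsp90aa1*, a chaperone of the receptor, had 1098, 1251 and 1050 tags in the IL-11- group and 1067, 1117 and 1014 in the IL-11+ group (log2 fold change 0.07). For *Hsp90ab1*, its close relative, the log2 fold change was 0.21, from 776, 806 and 932 tags to 893, 903 and 798. The co-chaperone genes *Ptges3* (0.05) and *Fkbp4* (0.14) were as close between the groups, and in each of these 4 genes the tags of the groups overlapped. Tags of *Hsp90aa1* and *Ptges3* may be split with near-identical copies, since 34.3% and 27.5% of their 50-base windows near the transcript starts also occur in another gene.

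*Hsd11b1* was the one gene of the 6 whose groups did not overlap. It had 224, 188 and 248 tags in IL-11- libraries and 239, 255 and 322 in IL-11+ libraries, or 214, 177 and 204 against 253, 259 and 307 normalized CPM. Every IL-11+ library stood above every IL-11- library in normalized CPM, as in 14.5% of all tested genes; in none of the 6 genes did all stand below, as in 16.7% of tested genes. The means were 198 ± 19.0 and 273 ± 29.6 (SD, n = 3), 1.38-fold higher, and the log2 fold change was 0.46 (SE 0.164, 95% interval 0.12 to 0.81). The adjusted p of edgeR's test was 0.0666, so the gene was not called. A fit blocked on replicate number gave a log2 fold change of 0.46 and an adjusted p of 0.0188, still with a fold under 2 and not called. DESeq2 with the block gave an adjusted p of 0.134, and the blocked edgeR fit without the libraries numbered 1, 2 or 3 gave 0.0337, 0.216 and 0.0925; these further fits were chosen after seeing the data. Within same-numbered libraries the IL-11+ level was 1.184, 1.46 and 1.51 times the IL-11- level, higher in 3 of 3. *Hsd11b1* lies at chr1:193221634-193264075 on the minus strand with 7 transcripts of up to 7 exons, and *Gm38118* overlaps its span on the same strand. No 50-base window near the transcript starts of *Hsd11b1* also occurs in another gene. Stretches farther from the starts were not compared.

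Around this enzyme, most genes of steroid supply and removal had few tags. Of 17 listed genes 13 were in the files and 6 were tested, and *Sult1a1* alone was called, lower. *H6pd*, which supplies the cofactor of the *Hsd11b1* product, had 290, 218 and 289 tags in the IL-11- group and 316, 289 and 320 in the IL-11+ group. Its log2 fold change was 0.38 with an edgeR adjusted p of 0.153. *Hsd11b2*, whose product inactivates the hormone, was at the limit of detection with 0, 0 and 1 tags in the IL-11- group and 0 in each IL-11+ library. *Sult1a1*, a sulfotransferase gene, fell from 27, 17 and 23 tags to 3, 8 and 3 (log2 fold change −2.07, SE 0.447, adjusted p 0.00296; −2.69 without IL-11+ library 2). The steroid exporter genes *Abcb1a* (0.91, adjusted p 0.201) and *Abcb1b* (−0.68, adjusted p 0.212) were not called, and 8.12% and 16.7% of their windows are shared with other genes, each other included.

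*Nr3c2*, the mineralocorticoid receptor gene, whose product also binds glucocorticoids, had 10, 12 and 9 tags in the IL-11- group and 0, 3 and 2 in the IL-11+ group and was not tested.

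*Tsc22d3*, which encodes the glucocorticoid-induced leucine zipper protein GILZ, an inhibitor of inflammatory signalling, was lower in IL-11+ cells. It had 169, 106 and 46 tags in the IL-11- libraries and 45, 31 and 10 in the IL-11+ libraries, or 161, 99.9 and 37.8 against 47.7, 31.5 and 9.54 normalized CPM. The groups overlapped, because IL-11- library 3 lay below IL-11+ library 1. Within same-numbered libraries, however, the IL-11+ level was 0.296, 0.315 and 0.252 times the IL-11- level, lower in 3 of 3 and by a like factor in each. Mean levels were 99.7 ± 61.8 and 29.6 ± 19.2 (SD, n = 3), 3.38-fold lower. The log2 fold change was −1.76 (SE 0.439, 95% interval −2.68 to −0.84, edgeR adjusted p = 0.00916). Blocked on replicate number, the fit gave −1.76 with an SE of 0.216 and an adjusted p of 5.6e-09.

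The call for *Tsc22d3* rested on the test and on IL-11- library 1 when the replicate number was left out of the fit. DESeq2 gave −1.74 with an adjusted p of 0.183, and edgeR without that library gave −1.22 with an adjusted p of 0.0873. Further fits with the block were chosen after seeing the data. DESeq2 with the block gave −1.77 and an adjusted p of 4.3e-06. Leaving out the libraries numbered 1, 2 or 3 from both groups in the edgeR fit with the block gave −1.76, −1.82 and −1.71, with adjusted p of 4.9e-04, 3.1e-05 and 2.7e-12. *Tsc22d3* lies at chrX:140539528-140600659 on the minus strand, with 6 transcripts of up to 4 exons and no overlapping gene, and 1.35% of its windows are shared, with *Gm8812*.

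Markers of several other stromal types were also lower in IL-11+ cells, as *Tsc22d3* was. Among all tested genes 6.37% were called lower. Of 9 pericyte markers 8 were tested and 5 were lower. Their normalized CPM summed to 2706, 2337 and 2137 in the IL-11- libraries against 1079, 904 and 805, with *Rgs5* the most abundant (1951, 1700 and 1800 against 186, 174 and 206 tags). Of 10 smooth muscle markers 9 were lower, with sums of 2769, 3413 and 4286 against 141, 207 and 394 and *Myh11* the most abundant. These smooth muscle sums were highest in the libraries numbered 3, where *Tsc22d3* was lowest in each group, while the pericyte sums were highest in the libraries numbered 1, as *Tsc22d3* was. All 3 markers of interstitial cells of Cajal were lower (*Ano1* the most abundant, 152, 93 and 196 tags against 1, 0 and 15; sums 271, 168 and 258 against 21.2, 20.3 and 50.5). The part of these cells in the *Tsc22d3* difference, or in those of the other genes lower in IL-11+ cells, was not tested.

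*Zbtb16*, which encodes the zinc finger transcription factor PLZF, pointed the same way with less separation. It had 605, 410 and 228 tags in the IL-11- group and 258, 232 and 157 in the IL-11+ group. Libraries 1 and 2 of the IL-11- group stood above every IL-11+ library, whereas IL-11- library 3 fell inside the IL-11+ range. Normalized CPM averaged 384 ± 195 and 219.6 ± 63.4 (SD, n = 3), and the log2 fold change was −0.80 (SE 0.293, 95% interval −1.42 to −0.19, edgeR adjusted p = 0.0738), 1.75-fold lower and not called. Within same-numbered libraries the IL-11+ level was 0.473, 0.610 and 0.800 times the IL-11- level, lower in 3 of 3. With the block the log2 fold change was −0.72 and the adjusted p 2.5e-04, again under the fold threshold. Without IL-11- library 3 the fold change was −1.14 with an adjusted p of 0.00203, past both thresholds, and without IL-11- library 1 it was −0.38 with an adjusted p of 0.454. Blocked and without the libraries numbered 1, it was −0.52 with an adjusted p of 0.0680. *Zbtb16* lies at chr9:48654297-48836222 on the minus strand, with 2 transcripts of up to 7 exons.

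*Fkbp5*, whose product binds the receptor complex and lowers its affinity for the hormone, did not differ in one direction. It had 156, 84 and 45 tags in the IL-11- group and 96, 82 and 58 in the IL-11+ group. The 3 IL-11+ libraries all lay inside the IL-11- range. The IL-11+ level was 0.683, 1.05 and 1.50 times that of the same-numbered IL-11- library, so the direction changed from one number to the next. Mean levels were 88.3 ± 56.6 and 80.1 ± 23.4 normalized CPM (SD, n = 3), and the log2 fold change was −0.13 (SE 0.336, 95% interval −0.84 to 0.57, edgeR adjusted p = 0.853); without IL-11- library 1 it was 0.47. The spread was wider in IL-11- cells, where the highest library was 4.03 times the lowest, than in IL-11+ cells, where it was 1.84 times; this difference in spread was not tested. *Fkbp5* lies at chr17:28399094-28517527 on the minus strand with 15 transcripts of up to 14 exons, and overlaps *AC154912.5* and *AC154912.3* on the same strand.

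*Sgk1*, a kinase gene that controls sodium transport and cell survival, showed no difference past the test. It had 195, 142 and 141 tags in the IL-11- group and 186, 151 and 127 in the IL-11+ group. The groups overlapped almost fully, with the library numbered 1 highest in each. Mean levels were 145 ± 36.6 and 157 ± 38.2 normalized CPM (SD, n = 3), and the log2 fold change was 0.11 (SE 0.207, 95% interval −0.32 to 0.55, edgeR adjusted p = 0.789). Within same-numbered libraries the IL-11+ level was 1.06, 1.15 and 1.05 times the IL-11- level. *Sgk1* lies at chr10:21882184-21999903 on the plus strand, with 13 transcripts of up to 14 exons. No window near the transcript starts of *Sgk1*, *Fkbp5*, *Zbtb16* or *Hsd11b1* is shared with another gene.

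**Figure D2:**
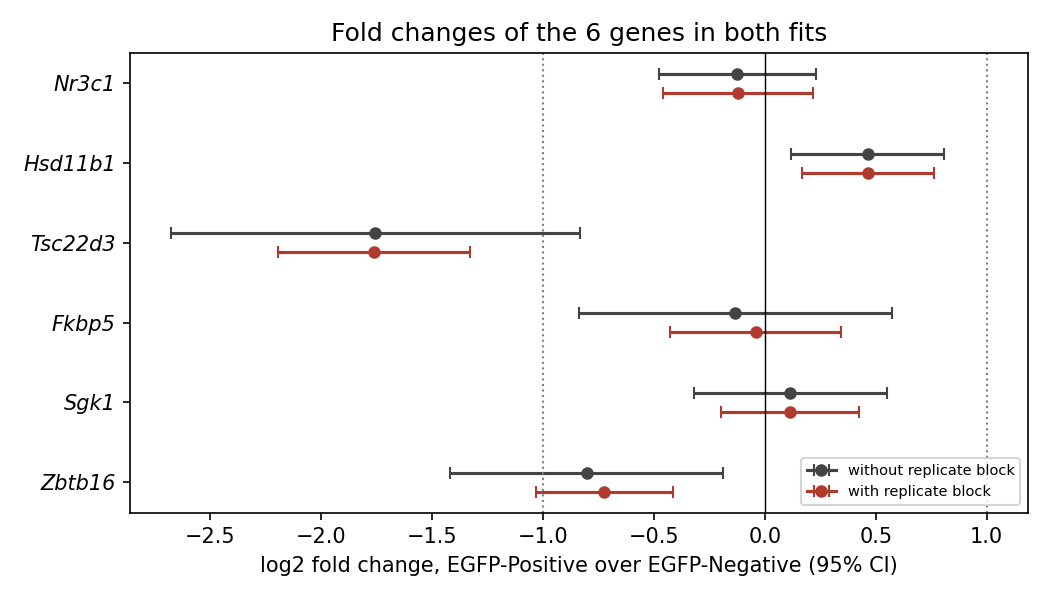
Log2 fold change (IL-11+ over IL-11-) of the 6 genes, with bars for the 95% interval, without and with a block for replicate number. *Tsc22d3* stood at −1.76 either way, with the shorter interval under the block (−2.19 to −1.33); dotted lines mark a fold of 2, and the interval of *Nr3c1* lies between them.

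The 6 genes split by how far they varied among libraries of one group. *Tsc22d3* varied most, 4.27-fold from lowest to highest in IL-11- and 5.00-fold in IL-11+ cells, and *Zbtb16* varied 3.09-fold and 1.83-fold. *Sgk1* varied 1.61-fold and 1.63-fold, and *Hsd11b1* varied 1.21-fold in each group. For *Tsc22d3*, *Zbtb16*, *Fkbp5* and *Sgk1* the libraries numbered 1 were highest and those numbered 3 lowest in both groups. In normalized CPM, the order of the 3 numbers was the same in both groups for these 4 of the 6 genes, and for 20.2% of all tested genes. The labels give the numbers and the methods 3 mice, and neither states that same-numbered libraries share a mouse.

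Whether levels differed between replicate numbers was tested with the number terms of the blocked edgeR fit, a test chosen after seeing the tags. It called 3 of the 6 genes, *Tsc22d3* (adjusted p = 1.1e-06), *Zbtb16* (4.7e-05) and *Fkbp5* (2.4e-04), at an adjusted p under 0.05. Among all 9334 genes 1.96% were called. By p, *Tsc22d3* ranked 12, *Zbtb16* 23, *Fkbp5* 37 and *Sgk1* 230 of 9334. The adjusted p of *Sgk1* was 0.0897, of *Hsd11b1* 0.872 and of *Nr3c1* 0.973, which ranked 8023.

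On a log2 scale, library 1 exceeded library 3 by 2.08 in IL-11- and 2.26 in IL-11+ cells for *Tsc22d3*, and by 1.62 and 0.87 for *Zbtb16*. For *Fkbp5* the differences were 2.00 and 0.87, and for *Sgk1* 0.68 and 0.70. The medians over the 6 genes were 1.15 and 0.78, and over all tested genes 0.00 in each group. The calls depended on which libraries were in the fit. Without those numbered 3, 0 of the 6 genes were called for replicate number in edgeR (4 at an unadjusted p under 0.05), against 2, *Tsc22d3* and *Zbtb16*, without the libraries numbered 1 (3 at an unadjusted p under 0.05), and 3 without those numbered 2; DESeq2 was not run for this test. Across all genes the call for replicate number fell from 183 genes to 39, 86 and 56 without numbers 1, 2 and 3, with fewer libraries in each fit. With all libraries, scaled by size alone, it was 117 genes, with the same 3 of the 6 genes called. Within a group, the labels tell the libraries apart by the number only.

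**Figure D3:**
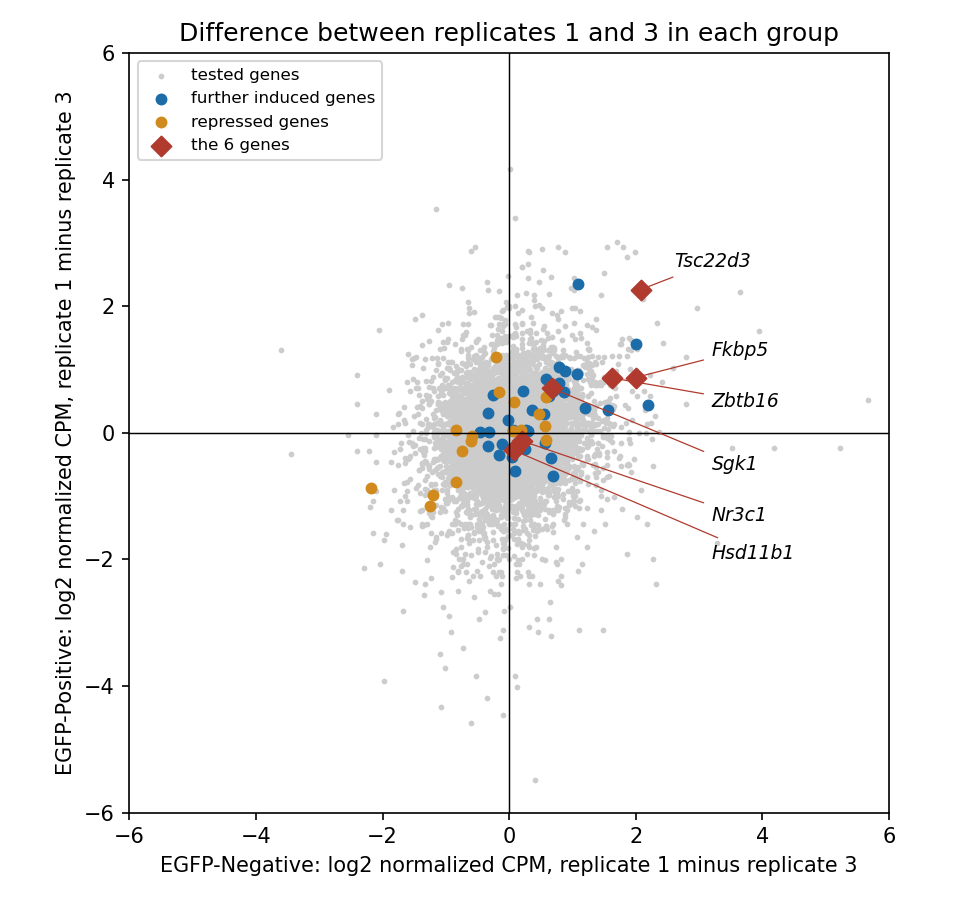
Difference in log2 normalized CPM between library 1 and library 3, in IL-11- cells on the horizontal axis and in IL-11+ cells on the vertical axis; each grey point is 1 of 9334 tested genes, with the induced and repressed lists in blue and orange. *Tsc22d3* (2.08 and 2.26), *Zbtb16* (1.62 and 0.87), *Fkbp5* (2.00 and 0.87) and *Sgk1* (0.68 and 0.70) lie in the upper right, and *Nr3c1* and *Hsd11b1* near the origin.

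Across the 6 libraries, log2 levels of the 4 response genes ran together to differing degrees. Pearson r was 0.947 for *Tsc22d3* with *Zbtb16*, 0.890 for *Fkbp5* with *Sgk1* and 0.816 for *Fkbp5* with *Zbtb16*. It was lower for *Zbtb16* with *Sgk1* (0.633) and for *Tsc22d3* with *Fkbp5* (0.632) and *Sgk1* (0.522). Between *Hsd11b1* and *Tsc22d3* it was −0.787, and for *Nr3c1* it ranged from −0.19 to 0.51 over the other 5 genes. These values describe 6 points that share groups and, in part, replicate numbers, and they carry no test. Among 5057 other genes, each averaging 30 tags or more, the one most like *Tsc22d3* was *Setd7* (r = 0.993), and those most like *Zbtb16* were *Rpl27a* (0.991) and *2410006H16Rik* (0.987). *Fkbp5* was most like *Pim1* (0.994) and *Sox4* (0.990), *Sgk1* like *Zbtb2* (0.981) and *Opa1* (0.978), *Hsd11b1* like *D8Ertd738e* (0.990) and *Mllt4* (0.988), and *Nr3c1* like *Dip2c* (0.969) and *Gm19950* (0.960), each over 6 libraries.

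Further genes known to be induced by glucocorticoids did not share one direction with *Tsc22d3*. Of 40 listed genes 39 were in the files and 34 were tested; 4 were higher and 7 lower in IL-11+ cells (3.44% and 6.37% of all tested genes), with a median log2 fold change of −0.29. At an unadjusted p under 0.05, 7 were higher and 14 lower, or 20.6% and 41.2%, against 12.2% and 14.5% of all tested genes. The largest fall was that of *Galnt15*, a glycosyltransferase gene, from 466, 161 and 134 tags to 27, 17 and 11 (log2 fold change −3.65, SE 0.454), again with number 1 highest and number 3 lowest in both groups; without IL-11- library 1 its fold change was −2.81. *Anxa1*, which encodes the anti-inflammatory annexin A1, fell from 509, 534 and 600 tags to 198, 221 and 191 (−1.27, SE 0.162), and *Zfp36*, whose product destabilizes cytokine mRNA, fell too (−1.17), with 12.2% of its windows shared with other genes. The cell cycle inhibitor genes *Cdkn1a* (−1.26) and *Cdkn1c* (−1.20) and the receptor gene *Il6ra* (−1.22) were also lower, *Cdkn1c* not without IL-11- library 2 (−0.995, adjusted p 0.0539). The other lower gene was *Fgd4*, named after its values were seen (−1.13, adjusted p 0.0475); it lost its call in DESeq2 (adjusted p 0.135), with a looser filter on low counts and without any single library except IL-11- library 3.

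The induced genes that were higher were *Angptl4*, *Lox*, *Rgs2* and *Ddit4*. *Angptl4*, which encodes an inhibitor of lipoprotein lipase, had 103, 124 and 74 tags in the IL-11- group and 320, 374 and 226 in the IL-11+ group; its log2 fold change was 1.76 (SE 0.236, edgeR adjusted p = 3.1e-05). *Lox* (1.05), *Rgs2* (1.02) and *Ddit4* (1.02) stood just over the fold threshold; they fell under it when libraries were scaled by size alone (0.96, 0.95 and 0.95), with at least 10 tags in every library (*Rgs2* 0.98 and *Ddit4* 0.98), without IL-11- library 3 (0.90, 0.85 and 0.67) or IL-11+ library 1 (0.80, 0.93 and 0.91). *Lox* also lost its call without IL-11- library 2 (0.91) and *Rgs2* without IL-11+ library 2 (0.88). The often used response genes *Per1* (−0.23, adjusted p 0.452), *Dusp1* (−0.42, adjusted p 0.0850) and *Klf9* (−0.60, adjusted p 0.0169 and a fold under 2) were not called. *Klf9*, with 518, 525 and 491 tags in the IL-11- group and 305, 272 and 334 in the IL-11+ group, did not overlap between the groups. The block added a call for *Sesn1*, named after its values were seen (−1.07, adjusted p 0.0131, against 0.0885 without the block). Replicate number was called for 10 of the 34 tested induced genes, *Galnt15*, *Gpx3*, *Mt1*, *Mt2*, *Glul*, *Sesn1*, *Angptl4*, *Rgs2*, *Lox* and *Ddit4*, against 1.96% of all tested genes, and the order of numbers was the same in both groups for 12, against 20.2%.

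Among genes known to be repressed by glucocorticoids, those called were higher in IL-11+ cells. Of 26 listed genes 25 were in the files and 18 were tested; 10 were higher and 0 lower in edgeR (1 lower at an unadjusted p under 0.05, 0 in DESeq2), with a median log2 fold change of 1.61; among all tested genes 3.44% were called higher. The paper already reports *Cxcl5*, *Mmp3*, *Mmp13* and *Ptgs2*, all called higher here, as elevated in IL-11+ fibroblasts of the same experiment. The list was also chosen with earlier results of these data known. Its share of called genes is therefore a description and not an independent test. The other 8 tested genes of the list were not called. Among them was *Cxcl10*, named after its values were seen, with a log2 fold change of −0.90 (edgeR adjusted p 0.0250) and a fold under 2. The 6 with the largest fold changes were *Mmp10* (5.00), *Mmp13* (4.75), *Cxcl5* (3.43), *Mmp3* (3.39), *Csf3* (3.35) and *Cxcl2* (2.48), matrix metalloproteinase, chemokine and growth factor genes. *Cxcl2* shares 30.6% of its windows with *Cxcl3*, and *Mmp10* shares 12.4% with *Mmp3*. Replicate number was called for 8 of the 18, against 1.96% of all tested genes. The median difference between libraries 1 and 3 over the 18 was −0.18 in IL-11- and −0.01 in IL-11+ cells, against 0.46 and 0.30 for the induced genes. The order of the numbers differed among the 8 genes called for it, which are named after their values were seen. In both groups *Il6*, *Ccl2*, *Ccl7* and *Lif* were highest in the libraries numbered 3, where *Tsc22d3* was lowest, *Mmp10* and *Mmp13* were highest in those numbered 1, where *Tsc22d3* was highest, and *Cxcl10* was highest in those numbered 2. *Mmp3* was highest in number 3 of the IL-11- group and in number 1 of the IL-11+ group.

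Relatives and partners of the response genes were read against the same shares, 3.44% of all tested genes called higher and 6.37% lower. Of 15 listed genes of the SGK1 kinase family, its substrates and the sodium channel, 10 were tested and 1, the substrate gene *Ndrg2*, was lower (106, 85 and 69 tags against 43, 24 and 17; log2 fold change −1.47, SE 0.301, edgeR adjusted p 0.00193). The substrate gene *Ndrg1*, the most abundant of the list and named after its values were seen, stood higher in every IL-11+ library (0.60, adjusted p 0.0190) with a fold under 2. *Sgk2* had 1, 0 and 0 tags in the IL-11- group and 0 in each IL-11+ library. *Sgk3*, with 7, 1 and 16 against 7, 3 and 7 tags, was not tested, and *Nedd4l*, a ubiquitin ligase gene that SGK1 acts on, was not called (−0.61, adjusted p 0.375). Of 16 relatives of the other genes 14 were tested and 2 were higher, *Fkbp11* (1.40, adjusted p 0.0157) and *Fkbp10* (1.08, adjusted p 0.00249), both genes for FK506-binding proteins of the secretory pathway. *Fkbp11* had an adjusted p of 0.0733 without IL-11- library 1, and *Fkbp10* fell under the fold threshold without IL-11- library 1 (0.99) or IL-11+ library 1 (0.98).

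Genes of the circadian clock and of the response to tissue dissociation were read beside the response genes, since glucocorticoid targets overlap with both. Of 18 clock genes 12 were tested and 1, *Tef*, was lower (−1.19, edgeR adjusted p 0.0100). *Nr1d1*, named after its values were seen, had 50, 58 and 11 tags in the IL-11- group and 19, 24 and 6 in the IL-11+ group, lowest in the libraries numbered 3 as the 4 response genes were. Its adjusted p for replicate number was 1.4e-04, and the block gave it a call, lower by 1.12 (adjusted p 0.00392, against 0.1499 without the block). All 18 dissociation genes were tested, with a median log2 fold change of −0.74; 12 were lower and 2 higher at an adjusted p under 0.05 whatever the fold, as were 812 and 638 of all 9334 genes. With the fold threshold 1 was higher, *Ier3* (1.52), and 3 lower, *Atf3* (−2.19), *Btg2* (−1.25) and *Junb* (−1.01), the last under the fold threshold with a looser filter and without IL-11- library 2 or IL-11+ library 1 or 3. Their summed level, led by *Egr1*, was 30707, 32312 and 24070 normalized CPM in the IL-11- group against 18915, 20255 and 19148. Of the IL-11- group it was lowest in library 3, where *Tsc22d3* was lowest, and of the IL-11+ group in library 1, where *Tsc22d3* was highest; its part in these results was not tested.

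The numbered libraries fell in the same order in both groups for 4 response genes, of which *Sgk1* was not called for replicate number. Promoter sequences were searched separately for the letters that the receptor is known to bind. A link between such letters and the order of the numbers was not tested. RefSeq promoter windows of 300 bases (GRCm38.p6) were on hand for 4 of the 6 genes, *Hsd11b1*, *Sgk1*, *Fkbp5* and *Tsc22d3*. There were 11 windows, most of them of *Sgk1*, so counts of windows weigh that gene most. The 6 letters TGTTCT, searched on both strands (AGAACA on the other), occurred in 4 of these windows, 3 of *Sgk1* and 1 of *Tsc22d3*, and in 19.0% of all 32851 windows. The palindrome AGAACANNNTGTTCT, which holds the 6 letters on both strands, occurred in 1 window of *Sgk1* and in 3 of all 32851 windows (0.00913%), in *Acnat2*, *Gm35041* and *Sgk1* among 27025 genes. A match is a description of letters, not a binding site. The windows with the palindrome and with the *Tsc22d3* match are shown so that the letters can be seen in place, 5′ to 3′ on the strand of the gene, with the matched letters in capitals. The *Sgk1* window, chr10:21993640-21993939 on the plus strand, lies inside the gene, has 50 bases in annotated exons, and has matches at positions 9, 62 and 71. The *Tsc22d3* window, chrX:140600473-140600772 on the minus strand, has 187 bases in annotated exons and a match at position 66.
*Sgk1*: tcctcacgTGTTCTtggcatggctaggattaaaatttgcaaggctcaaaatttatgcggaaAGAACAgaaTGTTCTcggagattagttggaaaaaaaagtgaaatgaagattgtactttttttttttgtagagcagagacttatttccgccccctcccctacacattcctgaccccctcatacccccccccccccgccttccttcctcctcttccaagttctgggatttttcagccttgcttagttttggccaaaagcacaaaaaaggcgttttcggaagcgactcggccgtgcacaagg
*Tsc22d3*: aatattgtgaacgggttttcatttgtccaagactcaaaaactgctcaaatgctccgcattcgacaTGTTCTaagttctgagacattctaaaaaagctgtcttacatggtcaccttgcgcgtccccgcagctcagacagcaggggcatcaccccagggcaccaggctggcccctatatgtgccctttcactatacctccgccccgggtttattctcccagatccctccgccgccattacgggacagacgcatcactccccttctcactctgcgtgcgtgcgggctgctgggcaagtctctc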

How the data were processed

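RNA of sorted IL-11- and IL-11+ cells was measured by 5′Tag-seq in 3 libraries per group. Per the methods of the study, reads were trimmed with Cutadapt 1.18 and mapped to RefSeq mm10 RNA in one orientation with Bowtie2 2.2.5, and the authors normalized with TCC in R 3.5.1. The authors deposited unnormalized tag counts per gene symbol; the handling of tags that map to several genes and molecular identifiers are not stated. Genes were tested where 3 or more of the 6 libraries held 10 or more tags, in R 4.3.3 with edgeR 4.0.16 (TMM on tested genes, glmQLFit, glmQLFTest, Benjamini-Hochberg adjustment; adjusted p under 0.05 and fold over 2). DESeq2 1.42.0, other normalizations, filters and left-out libraries were alternatives. The procedure was tested on simulated data. Floors cover counting error only; the 95% intervals come from edgeR's fits and include the spread between libraries.

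Same-numbered libraries were taken as pairs for the block because the methods name 3 mice and the labels number both groups alike, and their deviations from the group means correlated across 5063 genes (r = 0.23, 0.18 and 0.26 for numbers 1, 2 and 3; genes are not independent replicates).

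The 6 genes and the lists were chosen with earlier results of these data known. Named from each list were up to 6 called genes per direction, by size of fold change, and a few uncalled genes acting directly on the receptor, its hormone or SGK1, or often used as response genes; for each of the 6 genes, the 2 genes most like it were named, and for each marker list its most abundant gene and defining marker. Exceptions are marked in the text, and a few results that this rule would name are not reported here. Gene positions are from GENCODE and promoter windows from RefSeq.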

Additional observations from a re-analysis of the deposited data

How the results depend on the processing

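Across 60 fold changes of the 6 genes under alternatives other than leaving out libraries, 58 kept their direction and side of the threshold. Among these, the setting without the fold threshold reused the main fit, so its fold changes could not differ. With a library left out, or both libraries of the same number left out and the block added, 47 of 54 kept both. The fits without a numbered pair were chosen after seeing the data. With DESeq2, 0 of the 6 genes were called lower and *Tsc22d3* stood at −1.74 (adjusted p 0.183; over its alternatives adjusted p ran from 2.7e-12 to 0.183). With at least 10 tags required in every library 256 genes were lower, fewer genes being tested, and without the fold threshold 638 were higher. The fold change of *Fkbp5* changed sign to 0.0169 in DESeq2 with the replicate block and to 0.30 in the blocked fit without replicate 1, both added after seeing the data. With 1 library left out, the number of the 6 genes called lower ranged from 0 to 2, and the fold changes ranged from −2.27 to −1.22 (*Tsc22d3*), −0.51 to 0.47 (*Fkbp5*), −0.0721 to 0.33 (*Sgk1*) and −1.14 to −0.38 (*Zbtb16*). The cause of these changes was not tested. Over all alternatives *Nr3c1* ran from −0.20 to −0.01 and *Hsd11b1* from 0.37 to 0.58. The replicate block changed the call of none of the 6 genes (337 genes higher and 648 lower in all). Values of *Il11* and of called genes from the lists were followed too, but genes of the marker lists were not run under alternatives. Of these values, 275 of 285 kept direction and side of the threshold, and 171 of 192 with a library left out. The others kept direction only. The 285 include the setting without the fold threshold, in which a gene called in the main fit could not lose its call. With 3 libraries per group, genes with few tags, such as *Nr3c2* and *Hsd11b2*, were not tested, and a fold under 2 was not called at any p.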

Other observations

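Genes whose levels differed most between replicate numbers, named after their values were seen, included *Ctla2a*, *Hp*, *Hmox1* and *Lcn2*, ranked 1 to 4 of 9334 in the edgeR test of replicate number in which *Tsc22d3* ranked 12. *Hp*, which encodes the hemoglobin-binding protein haptoglobin, had 455, 294 and 145 tags in the IL-11- group and 627, 318 and 101 in the IL-11+ group, highest in the libraries numbered 1 and lowest in those numbered 3, as *Tsc22d3* was. *Lcn2*, which encodes an iron-binding protein of inflamed tissue, had 179, 110 and 26 against 897, 683 and 253 tags, with the same libraries highest and lowest. *Hmox1*, the gene of a heme-degrading enzyme, had 322, 117 and 536 against 539, 223 and 1003 tags, highest in the libraries numbered 3. Hemoglobin tags were highest in IL-11- library 3 (*Hbb-bs* 141), and their part in any value was not tested.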
